A study of Mus musculus with 2 samples.

Results

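Mouse chromosome 15 carried 518 of the 13073 protein-coding genes measured in a pair of Hepa1-6 tumours, and its genes were, as a whole, slightly lower in the tumour labelled IRF8-overexpression. A gene was counted as a member when the deposited table called it protein-coding, placed it on chromosome 15 and gave it a mean of at least 1 CPM (a gene's counts scaled to a common library total, here the column total) over both libraries. The table listed 785 protein-coding genes on the chromosome; 267 were under that mean, 125 of them at 0 counts in both libraries. Members were ordered by gene start, from Selenop at 3268547 to Pde1b, which ended at 103530052 (mm10). The chromosome was chosen by its log2 ratios, with its difference between these libraries already known, so that difference is described and not tested.

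Hepa1-6 is a mouse hepatocellular carcinoma cell line. Cells carrying an IRF8 overexpression lentivirus with GFP and puromycin resistance, or the vector control of the same lentivirus, were injected into opposite sides of the same C57bl/6 mouse, and RNA was taken from each tumour. The age of the mouse and the promoter that drives IRF8 are not given in the labels. Pairs of values below give the vector-labelled library first and the IRF8-labelled one second. There is 1 library per group, so no difference below has a replicate check and no test was made. Tumour and host are both mouse, so the reads of cancer cells and host cells are mixed in every value.

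Chromosome 15 is known in cancer biology for Myc, which encodes a transcription factor that drives ribosome production, metabolism and cell division, and whose locus also produces the long non-coding RNA Pvt1. Farther along lies a cluster of Apol genes, relatives of apolipoprotein L, several of which are induced by interferon. The chromosome also holds clusters of Ly6 surface proteins, type II keratins, Hoxc factors and Cyp2d liver enzymes.

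The start regions of 5 Apol members are shown first because these neighbouring genes differed in ratio. No sequence is shown for Apol6, the remaining member, and Apol7a, Apol7b and Apol8, which were under 1 CPM, held no match and are not printed. Each stretch runs from 250 bases before to 50 bases after an annotated gene start, 5' to 3' on the gene's own strand, from RefSeq (GRCm38.p6). Capitals mark matches, on either strand, to GAAA repeated with any 2 bases between the repeats, the core of the element bound by interferon regulatory factors; matches on the opposite strand read as its reverse complement, and neighbouring matches overlap. The stretches lie at chr15:77411031-77411330 (minus strand), chr15:77533266-77533565 (minus), chr15:77596076-77596375 (minus), chr15:77698639-77698938 (plus) and chr15:77728822-77729121 (plus).
Apol9a: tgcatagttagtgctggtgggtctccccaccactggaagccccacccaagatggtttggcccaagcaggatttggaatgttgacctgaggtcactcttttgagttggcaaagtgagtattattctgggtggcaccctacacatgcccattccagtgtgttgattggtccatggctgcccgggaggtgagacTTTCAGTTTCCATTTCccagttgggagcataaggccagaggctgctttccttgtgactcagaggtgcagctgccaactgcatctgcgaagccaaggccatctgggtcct
Apol7c: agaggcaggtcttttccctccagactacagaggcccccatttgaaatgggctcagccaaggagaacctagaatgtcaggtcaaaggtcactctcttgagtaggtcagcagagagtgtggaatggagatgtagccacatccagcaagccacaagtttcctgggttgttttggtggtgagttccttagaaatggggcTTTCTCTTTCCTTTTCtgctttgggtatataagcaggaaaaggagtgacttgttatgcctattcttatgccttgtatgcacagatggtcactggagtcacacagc
Apol10b: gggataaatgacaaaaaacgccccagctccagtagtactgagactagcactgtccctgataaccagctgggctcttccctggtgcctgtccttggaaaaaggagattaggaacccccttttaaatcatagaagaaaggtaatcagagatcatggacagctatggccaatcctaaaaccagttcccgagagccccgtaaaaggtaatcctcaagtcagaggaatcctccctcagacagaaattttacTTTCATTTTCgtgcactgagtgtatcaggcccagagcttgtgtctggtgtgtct
Apol7e: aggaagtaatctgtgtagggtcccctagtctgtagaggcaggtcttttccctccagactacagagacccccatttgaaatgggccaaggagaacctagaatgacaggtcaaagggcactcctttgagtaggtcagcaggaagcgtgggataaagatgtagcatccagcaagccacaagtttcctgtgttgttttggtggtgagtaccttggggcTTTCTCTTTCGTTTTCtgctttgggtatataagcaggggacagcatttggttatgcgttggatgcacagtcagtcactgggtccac
Apol9b: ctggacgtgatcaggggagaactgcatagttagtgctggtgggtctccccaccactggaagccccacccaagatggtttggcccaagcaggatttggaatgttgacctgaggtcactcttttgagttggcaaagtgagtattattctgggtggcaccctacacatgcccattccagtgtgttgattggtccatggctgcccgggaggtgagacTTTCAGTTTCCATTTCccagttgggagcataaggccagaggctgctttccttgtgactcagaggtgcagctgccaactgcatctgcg

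A pair of overlapping matches stood within 60 bases before the start in Apol9a, Apol7c, Apol7e and Apol9b, and Apol10b had 1 match that ran across its start. Across the chromosome's Apol genes, 8 of 11 with a sequence held the motif. It was present in 5.19% of the 289 members with a sequence, in 3.94% of 9942 measured genes of other chromosomes and in 3.44% of all 32851 start regions in the RefSeq table. Genes with several listed starts count once in the first 3 of these shares and once per start in the last. The median log2 ratio was -0.25 in the 15 members with a match and -0.14 in the others. The 15 members, and so the 5.19%, include the Apol members shown above, so neither value is independent of them. This difference was not tested, and a match of letters does not show binding.

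The libraries held 20223649 counts (vector-labelled) and 17316607 counts (IRF8-labelled). Irf8 itself, on chromosome 8, had 4178 and 2578 counts, against the label, so both libraries are named by their labels throughout and every direction rests on those labels. The defining genes of hepatoma cells were abundant in both, with Afp at 51825 and 16458 counts. The summed level of 9 hepatocyte and hepatoma markers was 9276 and 4783 CPM, most of it from Alb (3746 and 1873 CPM) and Afp (2598 and 937.4 CPM). Without Krt8 and Krt18, which lie on chromosome 15, the sum was 7191 and 3497 CPM. Of the 9 markers 7 were lower, while Apob was at a log2 ratio of 0.10 (interval 0.053 to 0.15) and Hnf4a at 0.056 (-0.020 to 0.13). The sum of 7 immune markers was 483.1 and 442.8 CPM, and that of 5 stromal and vascular markers was 1635 and 1764 CPM. Skeletal muscle markers summed to 6.27 and 205.2 CPM over 6 genes, and adipocyte markers to 31.8 and 89.8 CPM over 5. No gene of these marker lists was at 0 in either library, and the part of each tissue in the ratios below was not tested. In bulk RNA, fewer cells of a type and less RNA per cell cannot be told apart.

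The median chromosome 15 gene was 8.36% lower in the IRF8-labelled library. Its log2 ratio (IRF8-labelled over vector-labelled, after TMM scaling) was -0.13, with quartiles at -0.29 and 0.061, against -0.0012 for the 12555 genes of all other chromosomes (quartiles -0.18 and 0.19). No other chromosome had a lower median, and the next lowest was chromosome 18 at -0.055. The 2 chromosomes farthest on the other side were 9 at 0.19 (719 genes) and 16 at 0.13 (416 genes). Member genes held 1157314 counts, or 5.72% of the vector-labelled library, and 910477 counts, or 5.26% of the IRF8-labelled library. Ratios below 0 were found in 348 of 518 members, or 67.2%, where the share was 51% over all 13073 protein-coding genes and 50.3% on other chromosomes. Ratios above 0 were found in 170, where the shares were 49% and 49.7%. This split is what the choice of the chromosome used, and nothing is read from it.

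**Figure D1:**
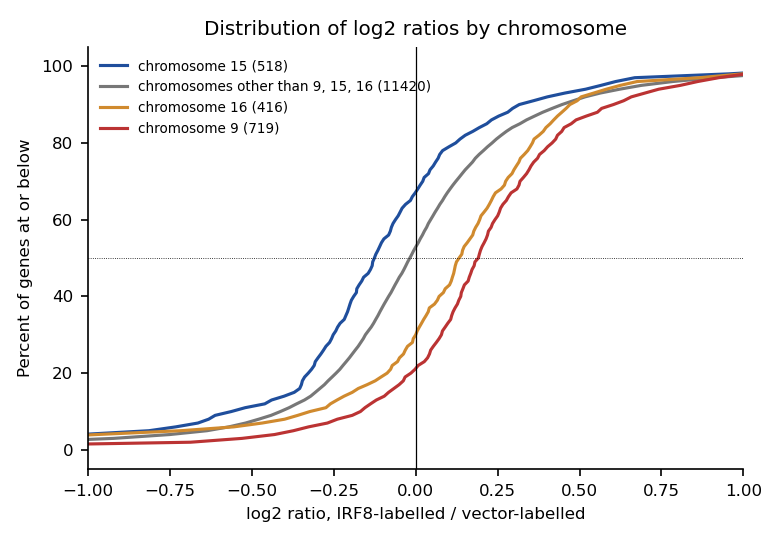
Cumulative distribution of log2 ratios (x axis, IRF8-labelled over vector-labelled) as the percent of genes at or below each value (y axis), for chromosome 15, chromosomes 9 and 16 and all remaining chromosomes; numbers of genes are in the key and the x axis is limited to -1 to 1. The chromosome 15 curve lies left of the rest over most of its length, with its median at -0.13, and the medians of chromosomes 9 and 16 lie to the right, at 0.19 and 0.13; the chromosome 16 curve crosses that of the rest at both ends.

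The shift was small for each gene and spread over many. Counting intervals, the 95% Clopper-Pearson intervals that cover counting error only, lay below 0 for 250 members and above 0 for 77; among all protein-coding genes these shares were 27.6% and 24.1%. Large differences were less of the picture: 50 members were at least 1.5-fold lower with an interval below 0 (9.65%, against 5.41% of all genes and 5.23% of those on other chromosomes) and 19 at least 1.5-fold higher (3.67%, against 6.26% and 6.36%). At 2-fold the counts were 22 lower (4.25%, against 2.75% and 2.69%) and 10 higher (1.93%, against 2.34%).

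The gap to other chromosomes was present at every level of abundance and largest, at -0.15, from 11.3 to 31.3 CPM. In the 104 members with a mean between 132 and 2527 CPM, the median log2 ratio was -0.17 and 84 were below 0, while 1482 genes of other chromosomes in that range had a median of -0.049. From 11.3 to 31.3 CPM the medians were -0.14 on chromosome 15 and 0.0077 elsewhere; from 31.3 to 69.9 CPM they were -0.13 and -0.013; and from 69.9 to 132 CPM they were -0.13 and -0.024. Among the least abundant members, from 1.04 to 11.3 CPM, the median was 0.036, against 0.11 elsewhere, and the ratios were widely spread with quartiles at -0.35 and 0.40. The gaps in the other ranges were between -0.12 and -0.072. By gene length, the shortest genes (592 to 3163 bases) had a median of -0.19 and the longest (5764 bases and over) one of -0.10; elsewhere the same ranges gave -0.021 and 0.010. Members on the plus strand had a median of -0.12 and those on the minus strand of -0.13.

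Non-coding genes were not used to choose the chromosome's members. The 41 long non-coding genes of chromosome 15 at 1 CPM or more had a median log2 ratio of 0.029, with quartiles at -0.38 and 0.39, and 20 of them were below 0. The 771 long non-coding genes of other chromosomes had a median of 0.13, with quartiles at -0.23 and 0.44, and 311 were below 0. The chromosome 15 median was lower again, within a spread several times as wide as the gap. The 13 processed pseudogenes of chromosome 15 had a median of 0.027 and the 504 elsewhere of -0.037, so they lay on the other side.

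**Figure D2:**
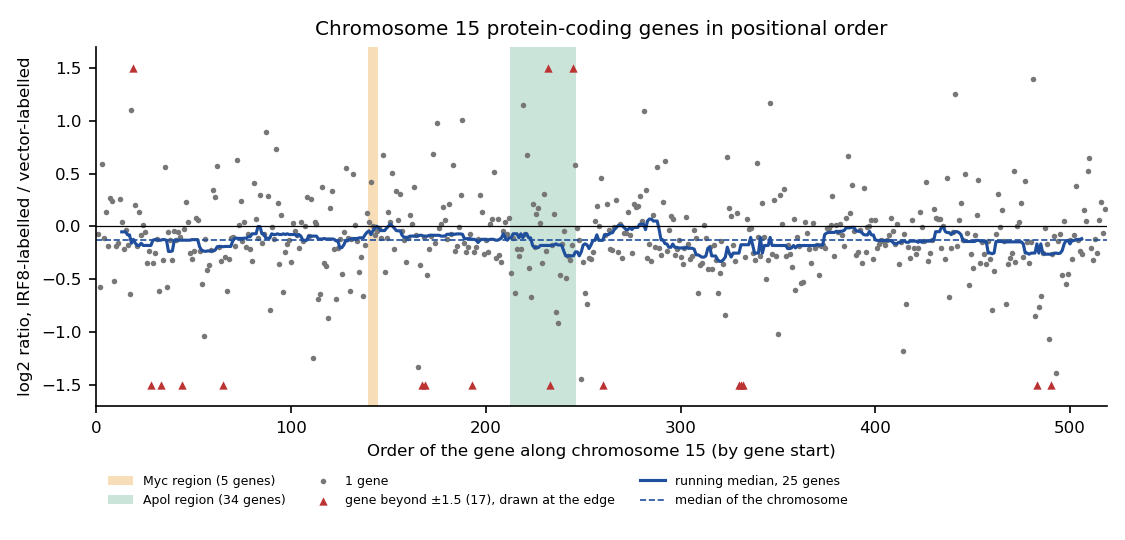
Log2 ratio (y axis) of the 518 members in their order along chromosome 15 (x axis), with a running median of 25 genes, the chromosome median as a dashed line, and the Myc and Apol regions shaded; triangles at the edge are 17 genes beyond 1.5 in size. The running median stays between -0.33 and 0.070 and is below 0 in 478 of 494 positions.

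Along the chromosome the lower level was spread from end to end, and no single break stood out. All 7 windows of 10 Mb that held at least 20 members had a median below 0, from -0.070 (0 to 10 Mb, 27 genes) to -0.18 (80 to 90 Mb, 97 genes). Of 208 such windows on other chromosomes, 116 had a median below 0 and 17 one below -0.1. On chromosome 15 the second number was 5 of 7. The lowest such window elsewhere, at -0.19, was below the lowest of chromosome 15. The other 4 windows held 8 to 17 genes each. The window from 10 to 20 Mb had the lowest median of all 10 Mb windows of the chromosome, -0.25. Of its 17 members, 16 were below 0 (67.2% of chromosome 15 members, 51% of all genes). They included Rai14, an actin-binding protein gene, with 4454 and 2566 counts (-0.61), Brix1, needed for ribosome assembly, with 2067 and 1532 (-0.25), and Drosha, the nuclear enzyme of microRNA processing, with 3104 and 2549 (-0.10). Adamts12, a secreted metalloprotease gene, was the exception with 432 and 563 counts (0.56, interval 0.38 to 0.75). The windows from 20 to 30 Mb (8 genes, median 0.0066) and from 60 to 70 Mb (15 genes, 0.0027) lay near 0.

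Placing 1 break so that genes lay as close as possible to the median of their side put it between Cby1 and Tomm22 near 79.7 Mb. The 282 genes before it had a median of -0.11 and the 236 after it of -0.16. With 3 breaks, a stretch of 20 genes from Apol7c to Rac2 (77.5 to 78.6 Mb) had a median of -0.30. In it 18 were below 0 (67.2% of chromosome 15 members, 51% of all genes). The 27 genes from Cyth4 to Cby1 (78.6 to 79.7 Mb) had a median of 0.022. These breaks removed 1.7% of the summed deviation of genes from the chromosome median, and 1 break 0.372%. The stretches were drawn from the values themselves and have no test. The lowest running median of 25 genes, -0.33, ran from Ep300, a histone acetyltransferase gene, to Cyp2d26 (81.6 to 82.8 Mb). In that run Snu13, a splicing factor, Desi1 and L3mbtl2 were at -0.44, -0.63 and -0.63, while Sept3, a septin gene, was at 0.65 from 18 and 26 counts (interval -0.21 to 1.67). The highest, 0.070, ran from Polr2f to Mief1 (79.1 to 80.3 Mb), where Ddx17, an RNA helicase gene, had 12069 and 11012 counts (0.052, interval 0.014 to 0.089).

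Myc was level between the libraries. The gene (ENSMUSG00000022346, chr15:61985391-61990374, plus strand) had 3538 and 3120 counts, which after scaling are 177.4 and 177.7 CPM. Its log2 ratio was 0.0027, with a counting interval of -0.067 to 0.073, so it lay 0.13 above the median of its chromosome; with DESeq2 size factors it was at -0.019. Pvt1, the neighbouring long non-coding RNA gene, had 679 and 565 counts (34.0 and 32.2 CPM), a log2 ratio of -0.081 with an interval that held 0 (-0.24 to 0.082).

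The region within 2.5 Mb of the Myc start held 11 protein-coding genes, of which 5 were members, and their median log2 ratio was 0.0027. Trib1, a pseudokinase that steers proteins to degradation, had 272.2 and 280.7 CPM (0.044, interval -0.012 to 0.10). Fam84b, the nearest member before Myc, had 48.0 and 64.4 CPM and a log2 ratio of 0.42 (0.30 to 0.55), the highest of the region. Beyond Myc, Fam49b, a regulator of the small GTPase Rac, had 212.0 and 200.9 CPM (-0.077, interval -0.14 to -0.013), and Asap1, a GTPase-activating protein for Arf, had 267.5 and 259.9 CPM (-0.041, interval -0.099 to 0.016). All 5 lay above the chromosome median. With only 5 genes the region's median does not have a firm sign: it was -0.019 with DESeq2 size factors, -0.0014 with TMM computed without chromosome 15, and -0.092 with 5 Mb on either side.

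Genes that MYC is known to activate elsewhere in the genome were lower on the whole. Of 25 on other chromosomes, 22 had a log2 ratio below 0, where the share over all genes was 51%, with a median of -0.25. One gene was at least 1.5-fold lower, against a share of 5.41% over all genes. Ddx21, a nucleolar helicase gene, had 3832 and 2166 counts (-0.64), and Npm1, a nucleolar chaperone gene, had 24770 and 18409 (-0.24). Odc1, the first enzyme of polyamine synthesis, had 3543 and 3346 (0.10), and Ppan 1040 and 1187 (0.37).

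**Figure D3:**
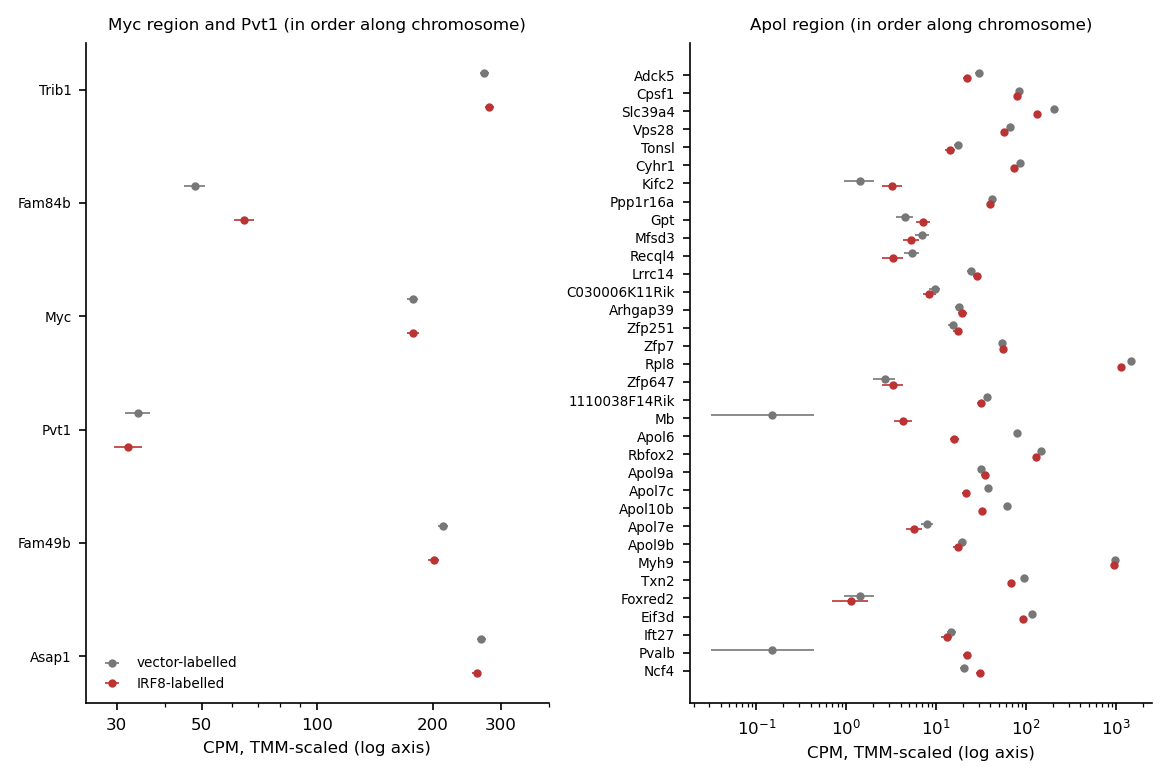
Level (x axis, TMM-scaled CPM on a log axis) of each gene of the Myc region with Pvt1 (left) and of each member of the Apol region (right) in the vector-labelled (grey) and the IRF8-labelled (red) library, with genes in their order along the chromosome; bars are exact 95% Poisson intervals and cover counting error only. Myc is at 177.4 and 177.7 CPM, while Apol6, Apol7c and Apol10b are lower and Pvalb and Mb higher in the IRF8-labelled library.

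The Apol genes differed in size: 4 of the 6 members had an interval below 0, and none had one above 0. Intervals lay below 0 for 48.3% of chromosome 15 members and 27.6% of all genes, and above 0 for 14.9% and 24.1%. The 34 members from 500 kb before the first to 500 kb after the last Apol row had a median of -0.19. Of these, 23 were below 0 (67.6%), near the 67.2% of all chromosome 15 members. The 28 that are not Apol genes had a median of -0.18. The table listed 13 Apol rows, 12 of them protein-coding, and 6 were members, with a median of -0.63. Apol6 (chr15:77044729-77057106, plus strand) stood farthest out with 1580 and 278 counts, or 79.2 and 15.8 CPM, a log2 ratio of -2.32 (-2.51 to -2.14). Apol10b had 61.6 and 32.5 CPM (-0.92, interval -1.07 to -0.78), and Apol7c 37.5 and 21.4 CPM (-0.81, interval -0.99 to -0.63). Apol7e was lower as well, from 157 and 100 counts (-0.46, interval -0.84 to -0.096).

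The near-identical pair Apol9a and Apol9b, known in mice as interferon-induced genes, had ratios nearer 0. Apol9a had 31.6 and 34.4 CPM (0.12, interval -0.040 to 0.29). Apol9b had 19.4 and 17.3 CPM (-0.16, interval -0.39 to 0.056). Both intervals held 0, only that of Apol9b held the chromosome median, and the split of reads between the copies is uncertain. Apol9a and Apol7c both carry a pair of overlapping motif matches in the start regions shown above. The intervals of their ratios, which cover counting error only, do not overlap. The part of the motif in these ratios was not tested. Below 1 CPM, Apol7a had 17 and 5 counts, Apol8 had 5 and 0, Apol7b had 2 and 3 and Apol11b had 2 and 0, and Apol10a, Apol11a and Apol10c-ps were at 0 in both.

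Around the Apol genes, Myh9, the heavy chain of non-muscle myosin, was nearly level at 967.8 and 936.5 CPM (-0.047). Slc39a4, a zinc importer gene, had 204.8 and 132.7 CPM (-0.63), and Txn2, the mitochondrial thioredoxin gene, 95.1 and 67.7 CPM (-0.49). Rpl8, a ribosomal protein gene, had 28765 and 19886 counts (-0.35), and Eif3d, a translation initiation subunit gene, 2309 and 1632 (-0.32). On the higher side, Ncf4, a subunit of the phagocyte oxidase, had 405 and 534 counts (0.58, interval 0.39 to 0.77), Gpt, alanine aminotransferase, 89 and 126 (0.67, interval 0.28 to 1.09), and Lrrc14 481 and 492 (0.22, interval 0.032 to 0.40). The muscle genes Mb and Pvalb also lie here. Mb (myoglobin) overlaps Apol6 on the opposite strand, and since the kit leaves strand unmarked, reads from their shared stretch cannot be told apart; Mb had 3 and 75 counts while Apol6 had 1580 and 278.

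Departures from the chromosome's shift were counted as ratios at least 2-fold from its median of -0.13, with a counting interval that excluded that median. Above it were 12 members, 2.32%, and below it 19, or 3.67%. On other chromosomes the shares measured in this way from their own median were 2.36% and 2.68%. Of these genes, 19 belonged to a gene list described here, as did 163 of all 518 members. The lists were chosen with earlier results of these data known, so nothing is read from this count.

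**Figure D4:**
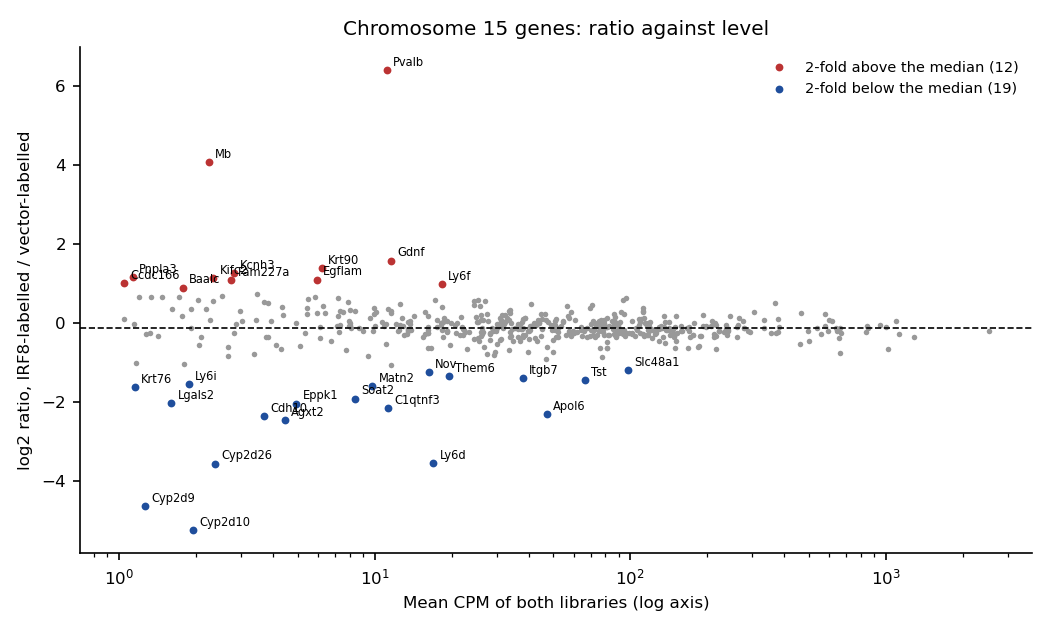
Log2 ratio (y axis) against mean CPM of both libraries (x axis, log) for the 518 members, with the chromosome median as a dashed line. Genes at least 2-fold above (red, 12) or below (blue, 19) the median are named; Pvalb lies highest at 6.41 and Slc48a1 is the most abundant of those below.

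Those above the median were led by muscle genes. Pvalb, the calcium-binding parvalbumin of fast muscle fibres, had 3 and 383 counts, 145-fold higher (49.3 to 706), and Mb 3 and 75, 28.4-fold higher (9.35 to 141). Both belong to the muscle markers given above; the other 4 of that list, which lie on other chromosomes, summed to 5.97 and 179.1 CPM. Gdnf, a growth factor for neurons and kidney, had 114 and 305 counts (1.59, interval 1.29 to 1.93), Egflam, the matrix protein pikachurin, 74 and 142 (1.10), and Ly6f, of the Ly6 family, 243 and 425 (0.98). Krt90, a keratin gene, had 67 and 158 counts (1.39, interval 1.00 to 1.86). Kcnh3, a potassium channel gene, Kifc2, a kinesin gene, Pnpla3, a lipid droplet lipase gene, and Fam227a, Ccdc166 and Baalc had 13 to 34 counts in the vector-labelled and 25 to 70 in the IRF8-labelled library. Pnpla3 belongs to the liver-enriched list described below.

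Those below the median included several genes of liver metabolism. Cyp2d10 and Cyp2d9, drug-metabolising cytochromes of mouse liver, had 79 and 51 counts in the vector-labelled tumour and both were at 0 in the other, at least 23.2-fold and at least 15-fold lower against 3 counts per library, with counting intervals that begin at 18.4-fold and 11.7-fold. Cyp2d26 had 90 and 5 counts (-3.56, interval -5.64 to -2.71). The remaining measured gene of the cluster, Cyp2d22, did not share this, with 182 and 175 counts (0.13, interval -0.18 to 0.43); the family's copies are similar and the split of reads among them is uncertain. Agxt2, a mitochondrial aminotransferase of liver and kidney, had 153 and 23 counts (-2.46), Soat2, which esterifies cholesterol in liver and gut, 267 and 61 (-1.91), and Tst, the sulphur-transferring enzyme rhodanese, 1952 and 631 (-1.44). The hepatocyte markers given above were lower in sum, though Apob and Hnf4a of that list were not, and their part in these values was not tested.

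The other genes far below were of several kinds. Ly6d, a surface protein of keratinocytes and early B cells, had 632 and 46 counts (-3.54, interval -4.06 to -3.16). Eppk1, the cytolinker epiplakin, had 161 and 33 (-2.04), and Krt76 36 and 9 (-1.63). Matn2 (matrilin) had 297 and 85 counts (-1.60), Nov, the matricellular protein CCN3, 461 and 170 (-1.25), and C1qtnf3, a secreted C1q and TNF-related protein, 372 and 72 (-2.16). Itgb7, the integrin chain that guides lymphocytes to gut, had 1106 and 372 counts (-1.38, interval -1.56 to -1.22), and Lgals2, a galectin gene, 53 and 10 (-2.03). Slc48a1, a haem transporter gene, had the most counts of the 19, with 2733 and 1060 (-1.18, interval -1.29 to -1.08). The others were Apol6, Cdh10 (a cadherin gene, 126 and 20 counts), Them6 (562 and 195) and Ly6i (57 and 16).

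Genes used by every cell were mostly lower by small amounts. All 14 ribosome and translation members were below 0 (51% of all genes), 13 of them with an interval below 0, and none was as much as 1.5-fold lower; the median was -0.27 and the range -0.57 to -0.070. Pabpc1, the poly(A)-binding protein and the member with the most counts, had 53788 and 41460 counts (-0.19, interval -0.21 to -0.17). Rpl37 had 10849 and 6659 (-0.52), Rpl30 24745 and 17837 (-0.29) and Rpl3 18054 and 13550 (-0.23). Ribosomal protein genes were lower elsewhere too: the 4 of chromosome 15 had a median of -0.32 and the 75 of other chromosomes one of -0.18, with 67 below 0. For eIF3 subunits the medians were -0.27 (4 genes) and -0.25 (8 genes). Of 48 housekeeping members, 42 were below 0, where the share was 67.2% over chromosome 15 members and 51% over all genes. None passed 1.5-fold, against 5.41% of all genes lower and 6.26% higher. Their median was -0.13, close to the chromosome's. Cct5, a chaperonin subunit and the most abundant of these per base of gene length, had 14810 and 10118 counts (-0.37), Ndufb9, of respiratory complex I, 1141 and 744 (-0.43), and Ywhaz, a 14-3-3 protein, 11763 and 9872 (-0.069). Trmt12 stood opposite with 208 and 259 (0.50), and Nsmce2 had 1094 and 1055 (0.13).

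Cell division genes lay lower than the chromosome as a whole, with 11 of 12 below 0, a median of -0.42 and 3 genes lower by 1.5-fold or more; over all genes 51% were below 0 and 5.41% as much as 1.5-fold lower. Cenpm, a centromere protein gene, had 242 and 118 counts (-0.84, interval -1.18 to -0.53), Recql4, a DNA helicase gene, 106 and 58 (-0.67), Troap, of the spindle, 567 and 314 (-0.67) and Gtse1 716 and 434 (-0.54). Atad2, a chromatin ATPase gene, had 3486 and 2242 (-0.45). Tuba1a, an alpha tubulin gene, had 4289 and 3784 counts (0.0033, and -0.019 with DESeq2 size factors), while its neighbours Tuba1b and Tuba1c were at -0.21 and -0.31; the 3 have very similar sequences.

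**Figure D5:**
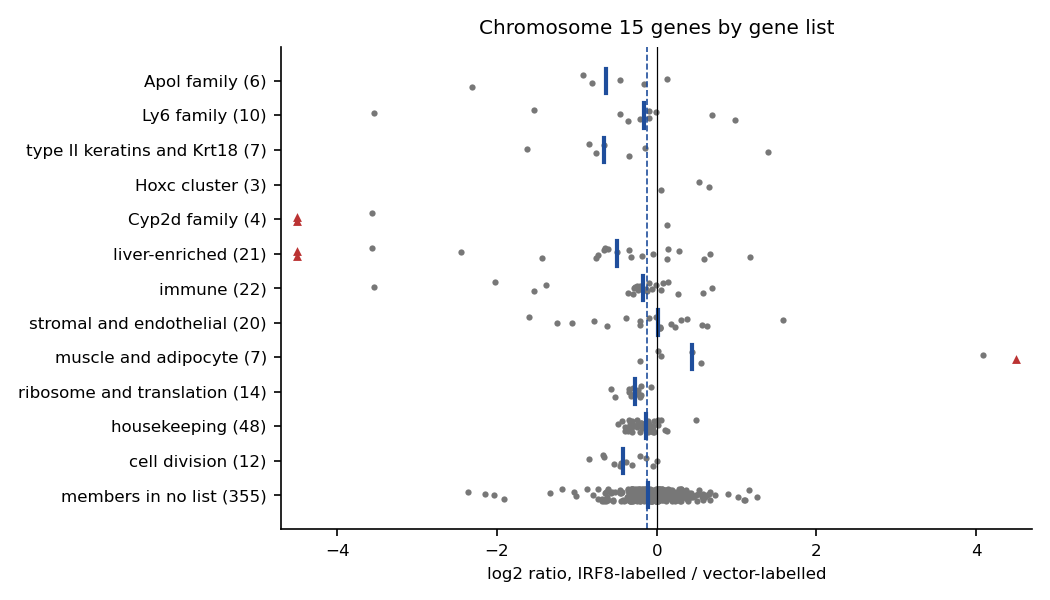
Log2 ratio (x axis) of chromosome 15 members by gene list (y axis, number of members in brackets); each point is a gene, blue bars are list medians (drawn for lists of 5 or more), the dashed line is the chromosome median, and red triangles are genes beyond 4.5 drawn at the edge. Housekeeping genes cluster around -0.13, and ribosome and translation genes lie wholly below 0. The liver-enriched and Cyp2d lists reach farthest down, and share Cyp2d10 and Cyp2d9 at that end. A gene can appear in several lists.

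Genes listed here as liver-enriched had a median of -0.49, with 10 of 21 at least 1.5-fold lower (5.41% of all genes) and 3 at least 1.5-fold higher (6.26% of all genes). Enrichment in liver was not measured in these data. The keratin pair of simple epithelium made up most of their counts: Krt8 had 16633 and 8645 counts (-0.76, interval -0.80 to -0.72), and its partner Krt18 had 24943 and 13946 (-0.65, interval -0.68 to -0.62). Lifr, a receptor for the cytokine LIF, had 3651 and 2058 counts (-0.64), Tmprss6, which restrains hepcidin, 1245 and 659 (-0.73), and Tspo, a mitochondrial outer membrane protein, 3205 and 2004 (-0.49). Of the 21, 15 were below 0 and 6 above (51% and 49% of all genes). The 3 at least 1.5-fold higher included Pnpla3, with 13 and 28 counts (1.17, interval 0.29 to 2.36). The others were Gpt (0.67, interval 0.28 to 1.09) and the growth hormone receptor gene Ghr, with 272 and 362 counts (0.59, interval 0.37 to 0.83). In the keratin cluster as a whole, 6 of 7 members were below 0 (67.2% of chromosome 15 members, 51% of all genes). Intervals lay below 0 for 4 of the 7 (48.3% and 27.6%). The 3 measured Hoxc genes were above 0 (32.8% and 49%), each from 26 to 77 counts. Only Hoxc6, at 0.53, had an interval above 0 (0.038 to 1.06). Those of Hoxc8 (0.054, -0.50 to 0.61) and Hoxc4 (0.65, -0.070 to 1.48) held 0.

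Immune genes of the chromosome were close to its own shift, with a median of -0.17 over 22 members, 4 at least 1.5-fold lower (5.41% of all genes) and 1 at least 1.5-fold higher (6.26% of all genes). The 4 were Ly6d, Ly6i, Lgals2 and Itgb7. Among genes carried by most white blood cells, Nckap1l, of the actin-regulating WAVE complex, had 1831 and 1544 counts (-0.062, interval -0.16 to 0.037), Cyth4 1477 and 1351 (0.055), and Rac2 1301 and 969 (-0.24). Il2rb, a receptor chain for interleukin signals, had 842 and 602 (-0.30), and Csf2rb, the shared receptor chain for GM-CSF, 1409 and 1132 (-0.13). Apobec3, an antiviral cytidine deaminase gene, had 2731 and 1992 (-0.27). Summed immune markers, which include Nckap1l, were 483.1 and 442.8 CPM.

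Stromal and endothelial genes had 10 of 20 members on either side of 0 and a median of 0.017. Of the 20, 5 were at least 1.5-fold lower (5.41% of all genes) and 2 at least 1.5-fold higher (6.26% of all genes). Matn2 and Nov, given above, are among the lower ones. Enpp2, which makes lysophosphatidic acid, had 21481 and 19489 counts (0.044, interval 0.016 to 0.072), Pdgfb, the growth factor that recruits pericytes, 1501 and 2038 (0.62, interval 0.53 to 0.72), and Col14a1, a fibril-associated collagen gene, 1201 and 1371 (0.37). Itga5, the fibronectin receptor chain, had 1727 and 1786 (0.23). Lower were Igfbp6, with 316 and 132 (-1.06), and Angpt1, a vessel-stabilising ligand, with 404 and 230 (-0.62). Lgals1, the most abundant of the list per base of gene length, had 12700 and 9671 (-0.21).

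The Ly6 cluster spread widely, from Ly6d at -3.54 to Ly6f at 0.98. Its most abundant member per base of gene length, Ly6a (Sca-1), had 11600 and 7406 counts (-0.46, interval -0.51 to -0.42), Ly6e 20615 and 16902 (-0.10, interval -0.13 to -0.073), and Ly6c1, of endothelium and some T cells, 3632 and 2758 (-0.21). Ly6g, a neutrophil surface gene, had 38 and 55 (0.69, interval 0.095 to 1.35). Gpihbp1, which holds lipoprotein lipase on capillaries, had 222 and 194 (-0.010, interval -0.30 to 0.27). Over the 10 measured members the median was -0.16, and similar copies make the split of reads uncertain. Among muscle and adipocyte genes other than Pvalb and Mb, Fbxo32, the muscle atrophy ligase, had 393 and 509 counts (0.55) and Gpd1, glycerol-3-phosphate dehydrogenase, 106 and 127 (0.44), while Asb8 had 849 and 648 (-0.21). The 355 members in no list had a median of -0.10, with 226 below 0.

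At the lower limit of membership, the 2 members just above a mean of 1 CPM were Ccdc166, with 13 and 25 counts, and Pheta2, with 20 and 19. Just under it were 1700088E04Rik, with 17 and 20, and Hoxc5, with 16 and 20.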

How the data were processed

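RNA was sequenced from 1 tumour per group, both grown in the same mouse, and each count column was assigned by its name to a labelled sample. Per the submitters' processing notes, reads were handled with HISAT2 2.0.5 and featureCounts 1.5.0-p3 on mm10. The deposited values are whole-number counts per gene, not normalized, and the authors' table also gives gene coordinates, length and type. The kit named in the labels' protocols does not mark strand; no source used here gives the strand setting of the counting.

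From these counts, log2 ratios were computed with edgeR 4.0.16 (R 4.3.3), TMM scaling and a prior count of 2. Counting intervals are 95% Clopper-Pearson intervals of a gene's share of counts, converted with the scaled library sizes, and levels in CPM are TMM-scaled. Both cover counting error only, and reads without molecular identifiers are not independent molecules. With 3 counts as the lowest usable value, the floors were 0.15 CPM (vector-labelled) and 0.171 CPM (IRF8-labelled). Because there is 1 library per group, edgeR's tests and DESeq2's tests were not run; DESeq2 1.42.0 supplied alternative size factors. The functions that compute ratios, counting intervals, fold calls and breaks were tested on simulated counts scaled by column totals. The scaling factors, the motif search and the figures were not tested in this way.

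The members and gene lists were chosen with earlier results of these data known. Genes were picked for naming from the members of the Myc and Apol regions, and not all members of the Apol region are described above. The same holds for the 10 largest departures in each direction at a mean of at least 5 CPM. Also picked were the most abundant members, up to 4 extreme members per list and the most abundant member of each list. Members beside breaks or the membership threshold were picked too. The remaining named genes, among them Rai14, Brix1, Drosha, Snu13, Desi1, L3mbtl2, Sept3, Ddx17, Il2rb, Csf2rb, Nckap1l, Ywhaz, Itga5, Gtse1 and Atad2, were chosen after their values were seen. Scaling, low-count filter, prior count, depth, overlapping genes and region bounds were varied.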

Additional observations from a re-analysis of the deposited data

How the results depend on the processing

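No paired analysis was possible because each group holds 1 library, and no replicate could be left out for the same reason. Over the alternatives tried, the chromosome 15 median ranged from -0.148 to -0.0864, the latter with scaling by column totals, and stayed below 0; its difference to other chromosomes ranged from -0.1301 to -0.1081. Column totals also moved the median of all protein-coding genes to 0.033, against -0.0066 with TMM and -0.029 with DESeq2 size factors. The Myc region median of 0.0027 changed sign with DESeq2 size factors (-0.019), with TMM computed without chromosome 15 (-0.0014) and with 5 Mb on either side of Myc (-0.092). The Apol region median was -0.46 without the margin beyond the Apol genes. Both region bounds, and leaving out gene families or chromosomes 9 and 16, were chosen after seeing the data. Without members that overlap another gene of the table, 79 were above 0, 10 were at least 1.5-fold higher and 28 lower, 4 were at least 2-fold higher and 11 lower, and 5 departed upward and 9 downward. At a mean of at least 5 CPM, 10 were at least 1.5-fold higher, 4 at least 2-fold higher and 11 lower, and 5 departed upward and 10 downward. Both settings leave fewer genes to count. The cause of the other differences was not tested. Of 107 summary values under alternatives, 3 changed sign and 14 moved. The other 90 kept their sign and stayed within the range that ranks around the median give, or within 1.5 times the main count. Of 416 values for 104 single genes, 405 stayed within the gene's counting interval. Of these 416, 5 were of the other sign, for Myc, Tuba1a and Mapk12, whose ratios were near 0 with intervals that held 0. Depth limits the least abundant members, where 13 to 34 counts stand behind several of the departures.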
